A study of Homo sapiens with 4 samples.

Results

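HOX genes encode homeodomain transcription factors that give cells of the embryo their position along the body axis. The 39 coding HOX genes of the table were taken by their symbols, a cluster letter A to D followed by a paralog number, out of 60623 gene rows. RNA was sequenced from T24, an established human bladder carcinoma cell line, with 2 libraries from a control group and 2 from a group that overexpressed CBX7, here called CBX7 cells. Per the study's methods, overexpression used the full-length CBX7 coding sequence in a pCDH-3xFLAG vector, and the sources used here do not say what the control cells carried or whether the libraries of a group came from separate cultures. The p-values therefore measure the spread between these libraries, which may be technical.

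The HOX genes lie in 4 clusters on 4 chromosomes, and genes of the same paralog number in different clusters descend from one ancestral gene. Within a cluster the low numbers sit at the 3′ end and are used toward the head, and the high numbers sit at the 5′ end and are used toward the tail, in the limbs and in the urogenital tract. Polycomb complexes keep unused HOX genes silent, and CBX7 is a chromodomain protein of Polycomb repressive complex 1 that binds trimethylated lysine 27 of histone H3. The comparison asked which HOX genes were on in this bladder cancer line and which changed when CBX7 was raised.

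Summed counts were between 20800910 and 25135488 per library, so the floor that a count of 0 allows (3 counts) lay between 0.119 and 0.144 CPM of the library's total, for counting error only. CPM values below are counts per library size after TMM scaling. CBX7 had 261.41 and 203.31 counts in the control libraries and 42852.46 and 35641.29 in the CBX7 libraries (log2 fold change 7.35, SE 0.18, adjusted p = 0.000584, edgeR quasi-likelihood test), so the labels and the overexpressed gene go together. The keratins KRT7, KRT8 and KRT18 were between 853.21 and 1464.68 TPM (transcript level scaled to gene length and library). PPARG, also on the list of epithelial and urothelial markers, was between 22.76 and 25.89 TPM, and EPCAM had 16 to 44 counts. The urothelial markers UPK2, UPK3A and UPK1B, the basal markers KRT5 and TP63 and epithelial cadherin CDH1 had at most 3 counts in every library. Of the 13 epithelial and urothelial markers, 7 were tested, and KRT19 (7.64 and 6.64 TPM in control cells, 17.31 and 15.07 in CBX7 cells) and GATA3 (3 and 4 counts against 14 and 22) were higher at an unadjusted p of 0.05 (background 3.42%), with adjusted p of 0.352 and 0.602 (edgeR). GATA3 entered the test only through the CBX7 libraries and so had to differ. Summed levels were at most 1.64 TPM for 4 leukocyte and 0.32 TPM for 3 endothelial markers in any library. The 5 fibroblast markers summed to 1.4 to 2.01 TPM in 3 libraries and to 5.64 TPM in CBX7 replicate 2, and 1 of them, COL1A1, was higher at the unadjusted threshold (60 and 54 counts against 87 and 106, log2 fold change 0.71, SE 0.25, adjusted p = 0.943, edgeR). The part of these marker differences in the HOX values was not tested. The 2 CBX7 libraries differed from each other more than the 2 control libraries did (chi-square per degree of freedom 54.68 against 6.06).

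A HOX gene was called on where it reached 1 TPM in all 4 libraries, silent where it had at most 3 counts in each library, and low otherwise. By this rule 26 of the 39 HOX genes were on, 7 were low and 6 were silent. The HOX genes together held 221.34 and 218.17 TPM in the control libraries and 207.01 and 229.86 TPM in the CBX7 libraries, and these ranges overlapped. Their summed CPM, 308.37 and 296.59 against 328.99 and 314.57, did not overlap (exact two-sided permutation p = 0.333, the smallest that 2 libraries against 2 allow). Just inside the limit for on stood HOXC5, whose lowest library had 1.00 TPM, and just outside stood HOXB8 with a lowest value of 0.99 TPM.

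**Figure D1:**
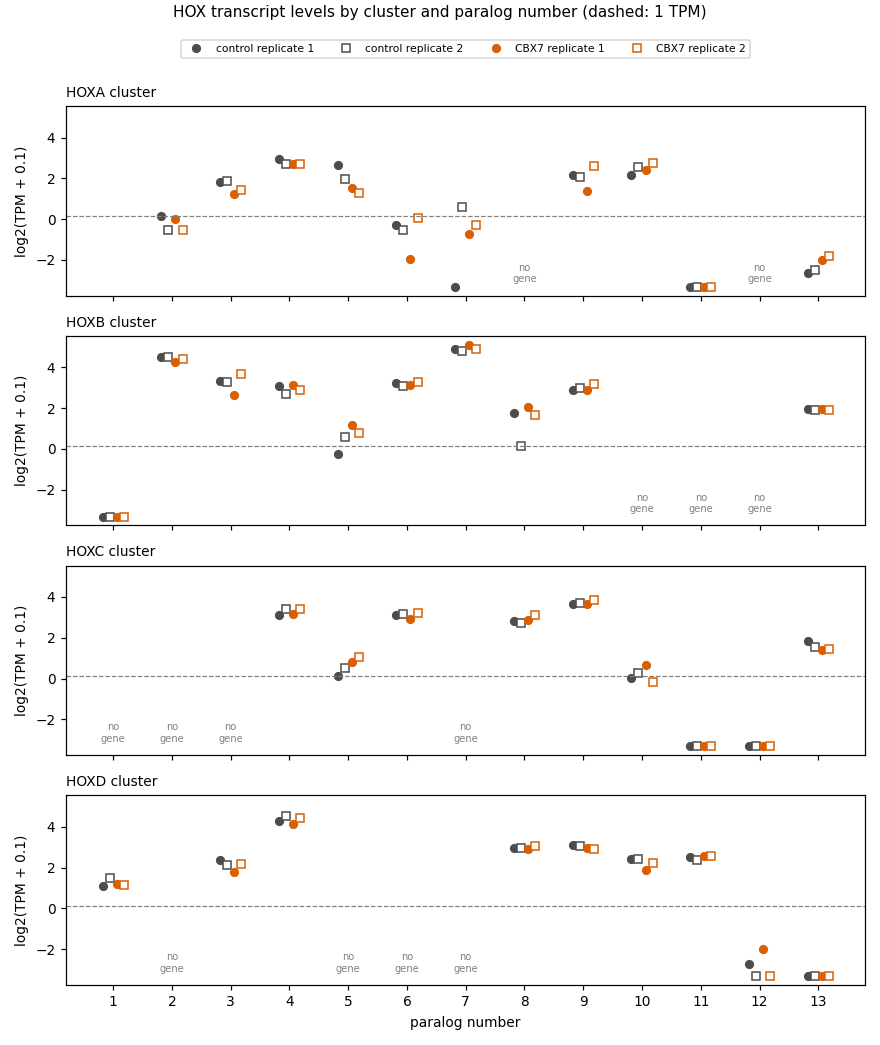
Level of each HOX gene as log2(TPM + 0.1) against its paralog number, 1 panel per cluster and 1 point per library; the dashed line marks 1 TPM and "no gene" marks positions a cluster does not have. Of the 38 genes plotted, 25 lie at or above the line in all 4 libraries, and 5 lie at 0 TPM in all 4 libraries, at paralog numbers 1, 11, 12 and 13.

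The HOXA cluster (GRCh38, chromosome 7, minus strand, 11 genes) had 6 genes on, among them HOXA3, HOXA4, HOXA5, HOXA9 and HOXA10, and held 13.1% of the HOX TPM. HOXA4, a regulator of anterior patterning, had 7.64 and 6.42 TPM in control cells and 6.44 and 6.52 TPM in CBX7 cells. HOXA10, a regulator of uterine and limb development, had 4.42 and 5.79 TPM in control cells and 5.28 and 6.64 TPM in CBX7 cells. The groups of both genes overlapped on this scale. HOXA9, a gene known from myeloid leukaemia, was between 2.47 and 5.93 TPM. The low genes were HOXA2, with 0.59 to 1.00 TPM, HOXA6, HOXA7 and HOXA13, and HOXA11 had a count of 0 in every library. HOXA7 was listed at 0 counts in control replicate 1 and at 9, 9.66 and 12 counts in the other libraries, and it shares 1507 exon bases with the antisense gene HOXA-AS3, whose 14.71, 17.4, 20.34 and 12.97 counts cannot be told apart from it where strand was not used. HOXA6 had 9.29 and 5.60 counts in control cells and 2 and 11.22 in CBX7 cells.

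The HOXB cluster (GRCh38, chr17:48528526-48729178, minus strand, 10 genes) held 42.6% of the HOX TPM, the largest share of the 4 clusters, with 7 genes on. HOXB7 had the highest mean TPM of any HOX gene, at 29.37 and 27.34 TPM in control cells and 34.49 and 29.36 TPM in CBX7 cells. In CPM the group means of HOXD4 were higher, at 33.4 (control) and 33.0 (CBX7) against 24.3 and 29.6 for HOXB7. HOXB2, a hindbrain patterning gene, had 22.69 and 22.19 TPM in control cells and 18.88 and 20.90 TPM in CBX7 cells. The CBX7 libraries of HOXB2 were both below the control libraries on the TPM scale, and on the CPM scale the groups overlapped. HOXB6 was between 8.48 and 9.69 TPM, HOXB4, known from blood stem cells, between 6.41 and 8.55 TPM, and HOXB9 between 7.30 and 8.88 TPM. HOXB13, a gene of the prostate and hindgut that lies apart from the rest of the cluster at its 5′ end, was on at 3.65 to 3.73 TPM. HOXB5 (0.75 to 2.17 TPM) and HOXB8 (0.99 to 4.10 TPM) were low, and HOXB1, which acts in the hindbrain, had a count of 0 in every library.

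The HOXC cluster (chr12:53938765-54056030, plus strand, 9 genes) held 20.1% of the HOX TPM, with 6 genes on. HOXC9, a regulator of thoracic motor neurons, had 12.52 and 13.06 TPM in control cells and 12.37 and 14.48 TPM in CBX7 cells. HOXC4 had 8.55 and 10.42 TPM in control cells and 8.80 and 10.65 TPM in CBX7 cells. The groups of both genes overlapped. HOXC6 (7.37 to 9.24 TPM) and HOXC8 (6.47 to 8.61 TPM), which act in the thoracic region, stood close below. HOXC10 was low, at 0.80 to 1.48 TPM, and HOXC11 and HOXC12 had a count of 0 in every library. HOXC13, a gene of hair and nail formation at the 5′ end of the cluster beyond those silent genes, was on at 2.50 to 3.54 TPM.

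The HOXD cluster (chr2:176092891-176190907, plus strand, 9 genes) held 24.2% of the HOX TPM, with 7 genes on, none low and 2 silent. HOXD4 had 19.30 and 23.25 TPM in control cells and 17.69 and 21.71 TPM in CBX7 cells. HOXD9, a limb and lumbar gene, had 8.61 and 8.28 TPM in control cells and 7.57 and 7.34 TPM in CBX7 cells. The CBX7 libraries of HOXD9 were both lower on the TPM scale, whereas those of HOXD4 overlapped the controls. HOXD8 (7.40 to 8.27 TPM), HOXD11 (5.14 to 5.75 TPM), HOXD10 (3.59 to 5.30 TPM), HOXD3 (3.31 to 5.04 TPM) and HOXD1 (2.01 to 2.66 TPM) made up the rest of the genes that were on. HOXD12 had 1 and 0 counts in control cells and 2 and 0 in CBX7 cells, and HOXD13, which patterns the digits, had a count of 0 in every library.

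Read across the clusters, paralog groups 4 and 9 were on in every cluster, with summed means of 44.5 and 33.1 TPM. Paralogs 2 to 4 held 38.0% of the HOX TPM, paralogs 5 to 8 held 33.6%, paralogs 9 and 10 held 20.3%, and paralogs 11 to 13 held 5.60%. Of the 9 genes at paralogs 11 to 13, 3 were on (HOXB13, HOXC13 and HOXD11), 1 was low (HOXA13) and 5 were silent. The only silent gene outside them was HOXB1. Paralogs 11 to 13 summed to 12.93 and 11.69 TPM in control cells and to 12.27 and 12.22 TPM in CBX7 cells, which overlapped.

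Promoter windows of RefSeq on GRCh38.p14, from 250 bases before to 50 bases after a transcript start, matched 20 of the 39 HOX genes. They are shown for the 5′ ends of the HOXA and HOXD clusters, where a gene that was on lies beside silent genes, each 5′ to 3′ on the gene's strand with CpG dinucleotides in capitals. HOXA10 (chr7:27179812-27180111, minus) and HOXD11 (chr2:176107030-176107329, plus) were on, HOXA13 (chr7:27200042-27200341, minus) was low, and HOXA11 (chr7:27185183-27185482, minus), HOXD12 (chr2:176099545-176099844, plus) and HOXD13 (chr2:176092471-176092770, plus) were silent.
HOXA10: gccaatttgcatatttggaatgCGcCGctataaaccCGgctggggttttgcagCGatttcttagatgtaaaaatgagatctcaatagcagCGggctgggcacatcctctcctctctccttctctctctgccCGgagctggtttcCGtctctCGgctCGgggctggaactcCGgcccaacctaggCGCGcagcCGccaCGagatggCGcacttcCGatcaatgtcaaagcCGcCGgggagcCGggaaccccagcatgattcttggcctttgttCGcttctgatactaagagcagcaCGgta
HOXA11: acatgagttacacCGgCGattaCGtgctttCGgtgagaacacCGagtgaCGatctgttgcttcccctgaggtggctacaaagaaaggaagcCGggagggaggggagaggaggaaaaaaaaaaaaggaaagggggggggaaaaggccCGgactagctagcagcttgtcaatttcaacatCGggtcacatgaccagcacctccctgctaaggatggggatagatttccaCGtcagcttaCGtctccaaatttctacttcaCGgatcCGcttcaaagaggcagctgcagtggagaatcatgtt
HOXA13: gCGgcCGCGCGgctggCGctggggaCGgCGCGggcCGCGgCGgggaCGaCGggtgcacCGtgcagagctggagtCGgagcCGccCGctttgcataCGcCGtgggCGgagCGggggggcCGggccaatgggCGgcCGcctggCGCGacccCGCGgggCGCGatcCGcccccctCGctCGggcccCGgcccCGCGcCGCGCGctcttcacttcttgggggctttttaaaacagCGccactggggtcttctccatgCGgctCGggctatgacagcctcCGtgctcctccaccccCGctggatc
HOXD11: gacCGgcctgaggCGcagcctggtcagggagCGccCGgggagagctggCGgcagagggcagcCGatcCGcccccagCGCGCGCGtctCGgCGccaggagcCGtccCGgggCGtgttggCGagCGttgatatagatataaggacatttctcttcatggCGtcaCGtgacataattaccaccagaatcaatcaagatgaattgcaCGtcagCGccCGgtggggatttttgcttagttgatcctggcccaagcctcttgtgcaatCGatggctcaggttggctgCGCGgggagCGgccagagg
HOXD12: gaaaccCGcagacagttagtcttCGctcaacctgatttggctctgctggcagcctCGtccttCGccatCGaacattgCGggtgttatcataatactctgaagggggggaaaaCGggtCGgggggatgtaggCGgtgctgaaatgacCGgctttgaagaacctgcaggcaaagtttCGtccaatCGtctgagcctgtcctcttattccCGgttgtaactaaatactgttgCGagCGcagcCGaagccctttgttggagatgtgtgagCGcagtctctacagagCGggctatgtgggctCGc
HOXD13: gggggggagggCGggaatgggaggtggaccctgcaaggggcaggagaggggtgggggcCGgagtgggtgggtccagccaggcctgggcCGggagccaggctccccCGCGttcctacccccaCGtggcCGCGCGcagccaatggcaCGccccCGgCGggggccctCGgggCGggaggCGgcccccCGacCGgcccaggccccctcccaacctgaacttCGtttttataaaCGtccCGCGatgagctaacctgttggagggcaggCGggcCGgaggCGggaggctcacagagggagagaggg

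The HOXA13 window held 44 CpG dinucleotides, that of HOXD11 27, that of HOXD13 24, that of HOXA10 shown here 21, that of HOXD12 19 and that of HOXA11 13. With each matched HOX gene given the median over its windows, the median over genes was 23 CpG for the 12 genes that were on, 30 for the 4 that were low and 16 for the 4 that were silent, against 14 over all 35116 windows. HOXA3 has 7 windows, with 0 to 29 CpG, and a second HOXA10 window held 25. The sets overlapped widely (4 to 36 for on, 11 to 44 for low and 11 to 24 for silent). On either strand, the TATA box letters TATAAA occurred in windows of 4 HOX genes, HOXA3, HOXA9, HOXA10 and HOXD13, and in 11.5% of all windows. The HOX and PBX motif TGATTNAT occurred in those of HOXA2 and HOXD11, and in 2.82% of all windows. The retinoic acid response element, a pair of AGGTCA half-sites 5 bases apart in the same orientation, occurred in 0 HOX windows and in 2 of all windows. These are letter matches within 300 bases and not binding sites.

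With CBX7 raised, 0 of the 31 HOX genes that passed the filter on low counts changed at an adjusted p of 0.05 (edgeR quasi-likelihood test, Benjamini-Hochberg adjustment over 14862 genes). The background was 3 genes, or 0.0202% of all genes tested, and the adjusted p-values of the HOX genes were between 0.879 and 0.996. At an unadjusted p of 0.05, 4 HOX genes passed, or 12.9% against a background of 4.74%. Of these, 3 were higher (background 3.42%) and 1 was lower (background 1.32%). One of the higher genes, HOXA13, entered the test only through the CBX7 libraries, so these shares do not bear on the members as a whole. With at least 10 counts required in every library, 2 of 30 passed (background 4.39%). DESeq2's Wald test gave 0 HOX genes at the adjusted threshold (background 0.451%) and 0 at the unadjusted threshold (background 2.88%). The 8 members not tested were the 6 silent genes, HOXA6 and HOXA7.

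**Figure D2:**
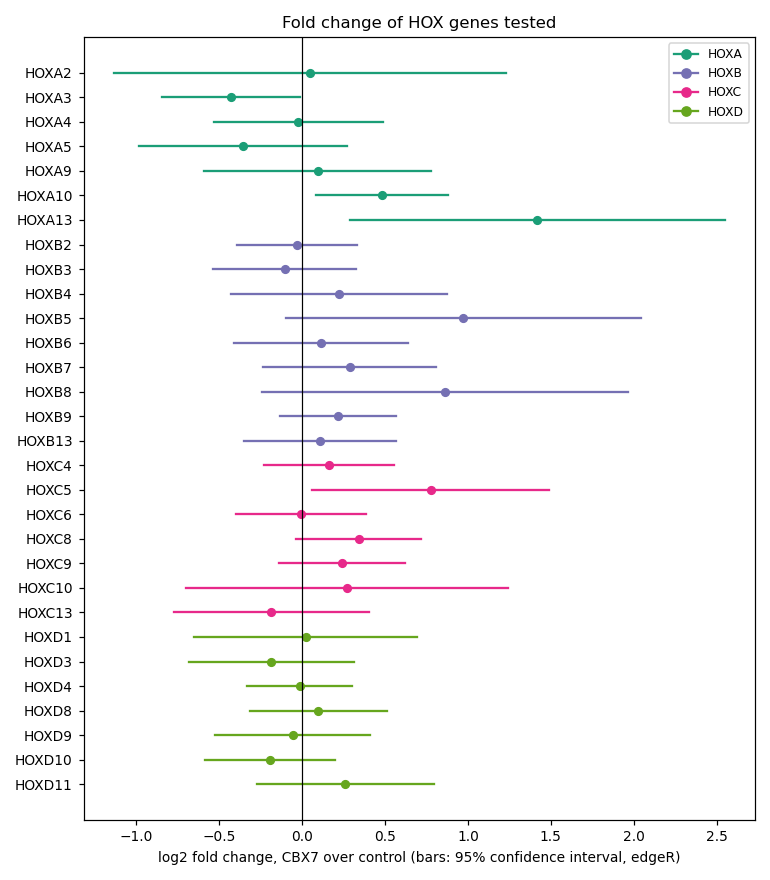
Log2 fold change (CBX7 over control) of 30 HOX genes tested, with 95% confidence intervals from the edgeR fit, coloured by cluster. The intervals of 26 genes include 0, and those of HOXA3, HOXA10, HOXA13 and HOXC5 do not.

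HOXA3, which acts in the pharyngeal arches that form thymus and parathyroid, had 197 and 170 counts in control cells and 152 and 131 in CBX7 cells, or 8.26 and 8.10 against 6.29 and 5.86 CPM. Both CBX7 libraries were below both controls, and the same held for TPM (3.47 and 3.57 against 2.24 and 2.61). The log2 fold change was -0.43 (SE 0.17, unadjusted p = 0.046, adjusted p = 0.951, edgeR). HOXA3 did not pass the unadjusted threshold with at least 10 counts in every library, without a filter or by DESeq2's Wald test.

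HOXA10 had 165.29 and 145.42 counts in control cells and 225.03 and 222.93 in CBX7 cells, or 6.92 and 6.91 against 9.32 and 9.98 CPM. The groups did not overlap on the CPM scale, but the TPM values given above did. The log2 fold change was 0.48 (SE 0.16, unadjusted p = 0.0258, adjusted p = 0.916, edgeR). HOXA10 shares 608 exon bases with the antisense gene HOXA10-AS, which had 61.71 and 36.05 counts in control cells and 105.92 and 48.69 in CBX7 cells, and the part of shared reads was not tested.

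HOXA13, a gene of the distal limb and the genitourinary tract, had 5 and 6 counts in control cells and 16 and 15 in CBX7 cells, or 0.06 and 0.08 against 0.15 and 0.19 TPM. The groups did not overlap, and every value was far below 1 TPM. The log2 fold change was 1.42 (SE 0.45, unadjusted p = 0.0223, adjusted p = 0.879, edgeR), the largest among the HOX genes tested in this fit. On the log2(TPM + 0.1) scale it was 0.67 (SE 0.33, adjusted p = 0.935, limma), smaller in size than those of HOXA5, HOXB8 and HOXB5, and without control replicate 1 it was 1.20, below that of HOXB8. HOXA13 had too few counts in the control libraries to pass the filter there and entered the test only through the CBX7 libraries, so it had to differ.

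HOXC5, a gene of cervical and upper thoracic patterning, had 29.38 and 32.45 counts in control cells and 59 and 50.35 in CBX7 cells, or 1.00 and 1.31 against 1.68 and 1.95 TPM. The groups did not overlap on either scale, and the log2 fold change was 0.77 (SE 0.29, unadjusted p = 0.0377, adjusted p = 0.951, edgeR). A second gene model, AC012531.2 in the table, shares 1081 exon bases with HOXC5 and had 20.45 and 0.63 counts in control cells and 0 and 24.68 in CBX7 cells. With both rows summed, the counts were 49.83 and 33.08 against 59 and 75.03, still without overlap, and the log2 fold change was 0.65 (SE 0.31, unadjusted p = 0.082, adjusted p = 0.951, edgeR), so HOXC5 no longer passed the unadjusted threshold.

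**Figure D3:**
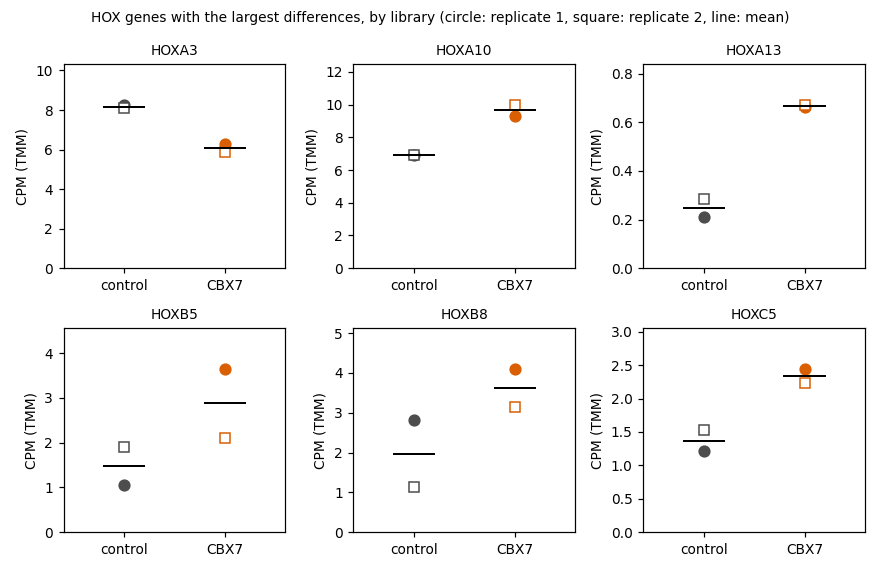
Normalised counts (CPM, scaled by TMM) in each library for 6 HOX genes, with a circle for replicate 1, a square for replicate 2 and a line at the mean of each group. HOXA3 is lower in both CBX7 libraries and the other 5 genes are higher, with HOXB5 and HOXB8 spread widely within groups.

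HOXB5 and HOXB8 had the largest fold changes after HOXA13 and did not pass the unadjusted threshold. Both passed it without the filter on low counts (unadjusted p = 0.00347 and 0.00467, adjusted p = 0.215 and 0.263, edgeR). With the newer quasi-likelihood method on the same unfiltered genes neither did (unadjusted p = 0.0547 and 0.0891, adjusted p = 0.785 for both, edgeR). HOXB5, which acts in the enteric nervous system and lung, had 25.46 and 40.15 counts in control cells and 87.83 and 47.3 in CBX7 cells (log2 fold change 0.97, SE 0.43, adjusted p = 0.951, edgeR). HOXB8, known from myeloid progenitors, had 67 and 24 counts in control cells and 99 and 70 in CBX7 cells (log2 fold change 0.86, SE 0.44, adjusted p = 0.951, edgeR). The groups of both genes did not overlap in CPM, those of HOXB8 overlapped in TPM, and the spread within each group was wider than the gap between the groups. With each library left out in turn, the log2 fold change ran from 0.53 (without CBX7 replicate 1) to 1.45 (without control replicate 2) for HOXB5, and from 0.36 (without control replicate 2) to 1.65 (without control replicate 1) for HOXB8. Without CBX7 replicate 2, in a fit that assumes the lone CBX7 library varies like the controls, 6 of 32 HOX genes passed the adjusted threshold against a background of 35.5% of all genes. By log2 fold change in that fit, HOXB5 (1.31), HOXB8 (1.03), HOXB7 (0.52), HOXB4 (0.47) and HOXC8 (0.37) were higher and HOXB3 (-0.32) was lower. No HOX gene passed it when control replicate 1, control replicate 2 or CBX7 replicate 1 was left out.

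The remaining genes named above for their levels had small fold changes. HOXB4 had 275.58 and 178.42 counts in control cells and 338.44 and 209.53 in CBX7 cells, a log2 fold change of 0.22 (SE 0.26, adjusted p = 0.951, edgeR). HOXB7 had 613 and 482 counts in control cells and 846 and 542 in CBX7 cells, a log2 fold change of 0.29 (SE 0.21, adjusted p = 0.951, edgeR). In both genes CBX7 replicate 1 was the highest library and CBX7 replicate 2 lay within the range of the controls. HOXC8 had 285 and 223 counts in control cells and 354 and 311 in CBX7 cells, with no overlap in CPM or TPM and a log2 fold change of 0.34 (SE 0.15, adjusted p = 0.951, edgeR). The fold changes of HOXC9 (0.24, SE 0.15) and HOXC4 (0.16, SE 0.16) were positive, with no overlap in CPM and with overlap in TPM. HOXD4 (-0.02, SE 0.13), HOXA4 (-0.02, SE 0.21), HOXB2 (-0.03, SE 0.15) and HOXD9 (-0.06, SE 0.19) had log2 fold changes near 0.

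Across the 31 genes, 27 had a log2 fold change under 0.5 in size, and the 95% intervals of 25 lay within -1 to 1, with a median half-width of 0.50. A change past 2-fold was therefore outside the interval for those 25 genes, while the intervals of 27 genes still held 0. The CPM values of the groups did not overlap for 10 HOX genes that were higher with CBX7 (background 15.4%) and for 3 that were lower (background 14.8%), namely HOXA3, HOXA5 and HOXD10. On the TPM scale the counts were 5 higher (background 12.2%) and 6 lower (background 17.4%). The higher genes thus outnumbered the lower ones on the CPM scale and not on the TPM scale. HOXA13 is among the higher genes on both scales. It entered the test only through the CBX7 libraries, so these counts do not bear on the members as a whole.

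The cluster medians of the log2 fold change were 0.03 for HOXA, 0.22 for HOXB, 0.24 for HOXC and -0.02 for HOXD. In the same order, 5 of 8, 7 of 9, 5 of 7 and 3 of 7 tested genes were above 0. The HOXA genes above 0 include HOXA13, which entered the test only through the CBX7 libraries. Summed over the HOXB cluster, normalised counts were 144.8 and 140.37 CPM in control cells and 157.64 and 153.08 CPM in CBX7 cells, without overlap. The HOXC sums were 52.89 and 49.44 against 60.42 and 55.73 CPM, also without overlap. An exact two-sided permutation test gave p = 0.333 for each, again the smallest possible. On the TPM scale both overlapped, with HOXB sums of 94.63 and 87.83 against 94.08 and 97.09 TPM and HOXC sums of 42.1 and 44.04 against 41.44 and 48.38 TPM. The sums of HOXA (34.24 and 32.72 against 34.16 and 34.33 CPM) and of HOXD (76.44 and 74.07 against 76.77 and 71.44 CPM) overlapped.

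HOX transcripts were shorter and richer in G and C than the genes tested as a whole, with a median length of 1976 against 2867 bases and a median GC content of 55.3% against 48.2%. A trend of counts on length and GC, fitted over genes with at least 100 counts on average, had a median at the HOX genes of 0.16 (log2) in CBX7 replicate 1, -0.07 in CBX7 replicate 2, -0.01 in control replicate 1 and -0.08 in control replicate 2. The 20 of 31 HOX genes with a log2 fold change above 0 (64.5%, against 50.3% of all genes) became 15 of 31 once the trend was removed. The median of the HOX genes moved from 0.10 to -0.0038, beside 0.0017 and -0.0094 for all genes. HOX genes whose groups did not overlap were then 8 higher (background 18.1%) and 9 lower (background 21.5%). HOXA13 was above 0 before and after the correction and is among these 8 genes. It entered the test only through the CBX7 libraries.

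**Figure D4:**
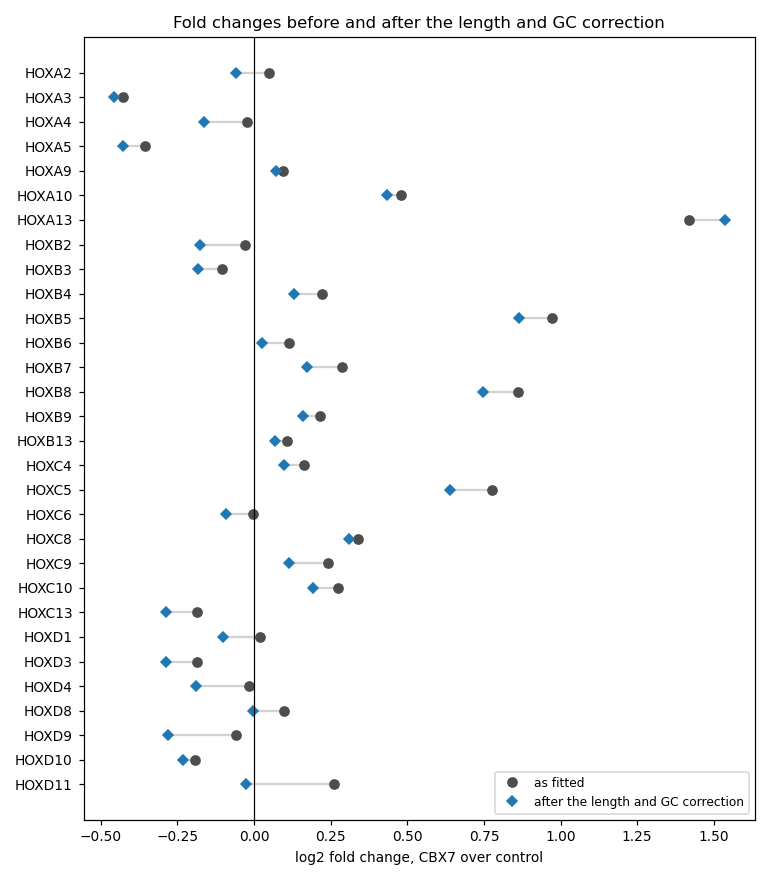
Log2 fold change of 30 HOX genes tested as fitted (circles) and after removal of the length and GC trend (diamonds). The values of 29 genes move down and those of 4 change sign, with HOXA13 moving up from 1.42 to 1.54.

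The 6 genes with the largest fold changes kept their direction after this correction. HOXA13 had a corrected log2 fold change of 1.54 (SE 0.44, adjusted p = 0.463, edgeR), HOXB5 of 0.87 (SE 0.40), HOXB8 of 0.75 (SE 0.40), HOXC5 of 0.64 (SE 0.28), HOXA10 of 0.44 (SE 0.14) and HOXA3 of -0.46 (SE 0.13). Those that changed sign included HOXA2, HOXD1, HOXD8 and HOXD11, the last from 0.26 to -0.03. The largest shift was that of HOXD11, and 0 HOX genes passed the adjusted threshold (background 0.0336%). At the unadjusted threshold 5 passed (background 7.89%): HOXA3, HOXA10, HOXA13 and HOXC8 (0.31, SE 0.11), and HOXD9 (-0.28, SE 0.11). HOXA13 entered the test only through the CBX7 libraries, so this count does not bear on the members as a whole.

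The deposited TPM and counts did not move together for every HOX gene. HOXA5, a gene of lung and foregut development, had 6.20 and 3.81 TPM in control cells and 2.79 and 2.33 in CBX7 cells, with both CBX7 libraries lower. Its counts were 91 and 64 against 70 and 55, with a log2 fold change of -0.36 (SE 0.25, adjusted p = 0.951, edgeR), and its counts per TPM, set relative to gene length and library, were 0.594 and 0.811 for the controls against 0.849 and 1.08 with CBX7, so that control replicate 2 and CBX7 replicate 1 were close together. On the TPM scale its change was -0.91 (SE 0.36, unadjusted p = 0.0475, adjusted p = 0.935, limma on log2(TPM + 0.1)), the only HOX gene past the unadjusted threshold there (background 3.53%). HOXB3 had 10.07 and 9.57 TPM in control cells and 6.12 and 12.79 TPM in CBX7 cells, with 710.53 and 641.06 against 586.50 and 710.93 counts. In both measures CBX7 replicate 1 of HOXB3 was the lowest library, and the log2 fold change was -0.11 (SE 0.17, adjusted p = 0.951, edgeR). The measures of HOXB6 and HOXC10 also disagreed. Their counts per TPM, set relative to gene length and library, differed between libraries by up to 1.65 and 1.70 times. That factor was 1.82 for HOXA5, 1.43 for HOXB8, 1.36 for HOXA9 and 1.27 for both HOXA10 and HOXB3. HOXB6 was 28.4 and 30.2 CPM in the controls and 25.6 and 37.7 CPM with CBX7, a wider spread than in TPM. The call of HOXC10 as low rests on TPM, and its counts were 30 and 18 against 37 and 23. HOXB3 shares 433 exon bases with HOXB6 on the same strand and 374 with the antisense gene HOXB-AS1, and 25 of the 39 HOX genes share exon bases with another gene.

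**Figure D5:**
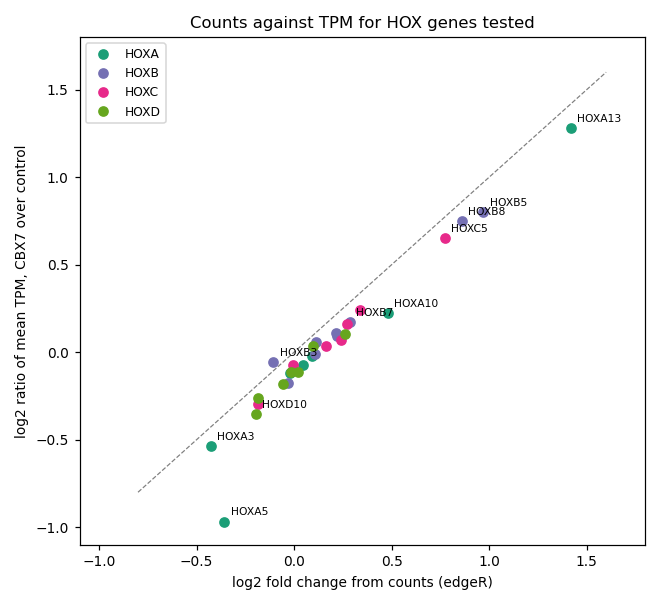
Log2 ratio of mean TPM against the log2 fold change from counts for 30 HOX genes tested, coloured by cluster, with a dashed line where both are equal. Most points lie just below the line, as does the median of all genes (-0.10 on the log2(TPM + 0.1) scale), HOXB3 lies above it and HOXA5 lies farthest below it.

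HOX proteins bind DNA together with TALE homeodomain partners, and 7 of 9 such cofactors were tested, of which 0 passed at the adjusted or the unadjusted threshold. PBX2 was between 18.10 and 25.17 TPM, PBX3 between 16.03 and 24.71 TPM and PKNOX1 between 10.96 and 16.03 TPM, and their groups overlapped on this scale. In CPM the groups of 4 cofactors did not overlap, with PBX3 lower (background 14.8%) and MEIS2, MEIS3 and PBX4 higher (background 15.4%). PBX4 had 26 and 20 counts against 46 and 31 with CBX7, and PBX3 830 and 822 against 742 and 681. PKNOX2 had at most 1 count in any library. Of the noncoding RNAs of the clusters, 24 of 25 were in the table and 10 were tested, with 0 at the adjusted threshold and 1 at the unadjusted threshold (background 4.74%). That RNA was HAGLROS of the HOXD cluster, with 77.63 and 72.89 counts in control cells and 145.74 and 109.08 in CBX7 cells (log2 fold change 0.70, SE 0.22, adjusted p = 0.859, edgeR). HOTAIRM1, of the HOXA cluster, was the most abundant at 15.94 to 19.03 TPM, and HAGLR, at the 3′ end of the HOXD cluster, was at 6.09 to 9.80 TPM. HOTAIR, which lies beside the silent HOXC11 and HOXC12, and HOTTIP, beside HOXA13, had at most 1 count in any library.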

How the data were processed

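The authors deposited 1 table with an estimated count and a TPM value per gene and library, together with group means, gene length and their own fold, p and adjusted p columns, which were not used. The submitters' notes name cutadapt 1.9.1, HISAT2 2.0.1, HTSeq 0.6.1 and DESeq2, with no roles, and build hg19. The deposited estimated counts are not all whole, which HTSeq does not give, so the counting tool is not settled. Strandedness is not given in the sources used here. Of the gene IDs, 96.5% were found in GENCODE release 29 on GRCh38, all 39 HOX IDs among them. Coordinates, GC content and overlaps come from that release, which may not be the authors' annotation. Gene lengths are the deposited ones.

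Deposited counts were rounded, filtered (filterByExpr), scaled by TMM and tested for condition with glmQLFTest in edgeR 4.0.16 (R 4.3.3). Benjamini-Hochberg adjustment was over all genes tested. The code was also run on simulated counts with the same dispersion for every gene and library. That run does not cover groups of unequal spread, as here. DESeq2 1.42.0, limma 3.58.1 on log2(TPM + 0.1) and a correction for length and GC were alternatives. Named genes passed an unadjusted p of 0.05, passed an adjusted p of 0.05 in an alternative, changed by at least 1 (log2), or were among the 2 highest of their cluster. Other HOX genes are named to account for the members, and 1 HOX gene and 1 cofactor are counted but not reported here by name. Members, lists and some tests were chosen with earlier results of these data known.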

Additional observations from a re-analysis of the deposited data

How the results depend on the processing

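The number of HOX genes at an adjusted p of 0.05 was 0 in every fit with all 4 libraries, and 0 to 6 with 1 library left out. The number at an unadjusted p of 0.05 was 4, against 0 by DESeq2's Wald test, 2 with at least 10 counts in every library, 1 by limma on TPM (added after seeing the data) and 1 to 9 with 1 library left out (1 without control replicate 1, 2 without control replicate 2, 4 without CBX7 replicate 1 and 9 without CBX7 replicate 2, beside 2.87%, 2.47%, 9.36% and 43.0% of all genes). The median HOX log2 fold change, 0.10, was -0.0038 after the length and GC correction, -0.0095 on the TPM scale and 0.028 to 0.19 with 1 library left out. All genes called, 3 in the reported fit, were 67 by the Wald test, 265 without a filter, 1 without a filter by the newer quasi-likelihood method (added after seeing the data), 5 after the length and GC correction and 45 to 5491 with 1 library left out. CBX7 stayed between 7.11 and 7.44.

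With 1 library left out, log2 fold changes ran from -0.32 to 0.082 for HOXB3, -0.094 to 0.47 for HOXB4, -0.00099 to 0.52 for HOXB7, -0.17 to 0.11 for HOXA4, -0.14 to 0.073 for HOXB2 and -0.25 to 0.11 for HOXD9, each changing sign. The cause was not tested, and such a fit takes the spread of the lone library from the other group.

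Same-numbered libraries deviated together over 11077 well-counted genes (r = 0.613), but only 2 pairs exist and the labels give no shared batch. With the replicate block, 361 genes were called (73 with the length and GC correction as well), 0 HOX genes passed at an adjusted and 6 at an unadjusted p of 0.05 (background 10.2%), and the HOX median was 0.09, or -0.0055 with that correction. HOXB5 and HOXB8 were among the 6 (adjusted p = 0.154 and 0.0919, edgeR). The block fit without that correction gave each gene's own spread no weight (infinite prior degrees of freedom, against 3.61 in the reported fit). The same held for the reported method without a filter and with 1 library left out. HOXA13 rests on 5 to 16 counts a library and entered the test only through the CBX7 libraries.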

Other observations

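The genes that set HOX chromatin states were all expressed. All 17 listed regulators passed the filter, with 0 at the adjusted threshold and 1, CBX2, another chromodomain member of Polycomb repressive complex 1, at the unadjusted threshold (background 4.74%). CBX2 had 477 and 482 counts in control cells and 725 and 619 in CBX7 cells (log2 fold change 0.43, SE 0.15, adjusted p = 0.935, edgeR), without overlap. The most abundant were the Polycomb repressive complex 2 subunit EED (36.48 to 40.98 TPM), the insulator protein CTCF (28.35 to 37.06 TPM) and the menin gene MEN1 (30.28 to 36.47 TPM). KMT2A, a histone H3 lysine 4 methyltransferase that maintains HOX transcription, had 3162.94 and 3981.58 counts in control cells and 1772.66 and 4153.13 in CBX7 cells, and CBX7 replicate 1 stood lowest.

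Of 15 genes in the neighbourhood of the clusters, 9 were tested and 0 passed either threshold. HNRNPA3, on the chromosome of the HOXD cluster and beyond MTX2, was between 532.87 and 557.87 TPM. The 6 ParaHox genes, relatives of the HOX genes outside the clusters, had at most 1 count in any library.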
